A study of Mus musculus with 24 samples.

Results

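The region described here is the stretch of chromosome 17 that follows the wild-type Oct4 viewpoint towards higher coordinates, out to 2 Mb. Its members are 446 HindIII fragments out of the 25150 fragments of the chromosome. They were taken by position, on the side of the viewpoint that was picked as the strongly contacted one from these counts. The rule takes every fragment whose first base lies between positions 35643149 and 37641095 of the mm9 build, and the members run from chr17:35643155-35652106 to chr17:37640831-37642525. The viewpoint fragment is chr17:35633988-35641095, and a distance in this text runs from its end to the first base of a member. The members cover 1964.3 kb and are between 50 and 31785 bp long, with a median of 3258.5 bp. The fragment just before them, a neighbour of the viewpoint left out of all shares, had between 7 and 7097 counts per library, and the first member between 596 and 12382. The last member had no count in any library, and the fragment just beyond it had counts in 3 libraries, at most 13.

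The contacts were measured by paired-end 4C sequencing in mouse embryonic stem cells of strain C57Bl/6 x 129/Sv at passage 7. The cells belonged to 2 lines, labelled OCF2ΔOCT4/SOX2 and OCF2ΔYY1 and named here by the last part of their labels as OctSox and YY1. Each line was sampled at day 0 and day 3 with 2 biological replicates, which gave 8 libraries of the wild-type viewpoint among the 24 libraries and 3 viewpoints of the series. The viewpoint primers were aimed at the wild-type allele on chromosome 17 in every library, and the labels put the altered allele of each line on chromosome 11. The series title places the comparison of days at the onset of differentiation. The labels give no agent or medium for day 3 and do not say whether a line is 1 clone, and the lines have no unaltered counterpart among these libraries.

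In 4C, crosslinked chromatin is cut with a restriction enzyme and ligated, so that fragments that lay close to a chosen viewpoint in the nucleus become joined to it and are counted by sequencing. Contacts normally decline with distance along the chromosome, and they need not decline alike on both sides, because chromosomes fold into domains whose inner contacts are more frequent than contacts across their limits. Oct4 is the product of Pou5f1, a transcription factor that maintains the pluripotent state and is silenced as stem cells differentiate. In the order of the GRCm38.p6 reference, the genes after Pou5f1 are Tcf19, Cchcr1, Psors1c2 and Cdsn, then a group with Ddr1, a collagen receptor, Ier3, Flot1 and Tubb5, a tubulin, then class I histocompatibility genes such as H2-T24, H2-T23 and H2-T22, several Trim genes, and further on Mog and Gabbr1. That reference is of another build than the fragments, so no fragment was assigned to a gene.

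Library depth differed widely. Total counts lay between 16297 and 406507, and the viewpoint fragment with 1 neighbour on either side took between 2.38% and 72.5% of them. The remaining counts, between 7090 and 333751 per library, are the base of every share given here. The fewest were in the second replicates of day 3, with 7976 in the OctSox line and 7090 in the YY1 line. A count of 0 in these libraries allows a share of up to 0.0376% and 0.0423%, that is 3 counts, against 0.0009% in the deepest library. Reads were not counted by molecule, so such limits and all intervals cover counting error only.

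The higher side held a large part of all contacts of the viewpoint on its chromosome. In OctSox cells its share was 58.7% and 36.9% on day 0, and 38.5% and 47.3% on day 3. In YY1 cells it came to 44.3% and 44.6% on day 0, and to 28.9% and 42.5% on day 3. Day 3 was lower than day 0 in every YY1 library, whereas the days overlapped in the OctSox line. Over both lines the share was 46.1% ± 9.11 (SD, n = 4) at day 0 and 39.3% ± 7.82 (SD, n = 4) at day 3. The difference of -6.83 percentage points was within the spread between replicates (exact two-sided permutation of days within lines, p = 0.278, smallest possible p = 0.0556). The YY1 line differed from the OctSox line by -5.30 points (exact permutation, p = 0.444).

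Contacts were packed into the first 500 kb. The 110 members within that distance held between 91.3% and 96.8% of all member counts, with a median of 93.6%. Of the 61 members with a mean share above 0.1%, 57 lay within 500 kb. In windows of 100 kb, the mean share over the 8 libraries was 23.4% ± 8.86 (SD) in the first window, 6.29% in the second, 4.46% in the third and 4.77% in the fourth. It was 1.34% ± 0.429 between 400 and 500 kb. The plot of windows by distance shows this near plateau between 200 and 400 kb and what follows it.

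**Figure D1:**
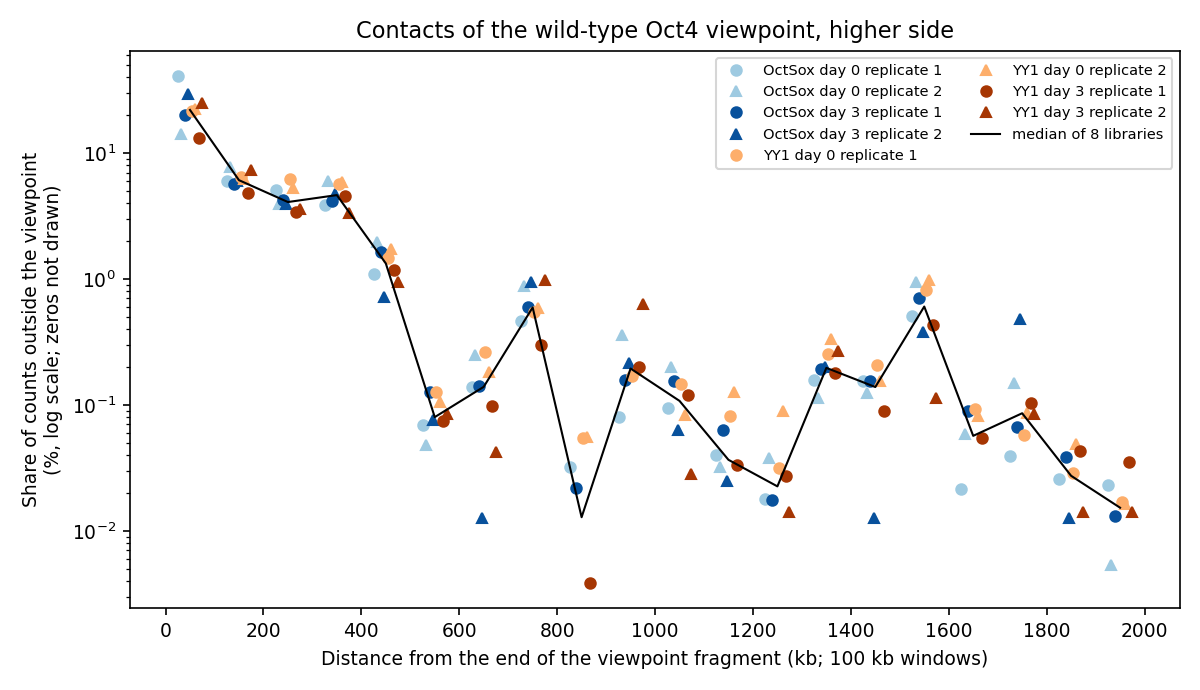
Share of the counts outside the viewpoint (%, log axis) in each of the 20 windows of 100 kb on the higher side, against distance from the viewpoint fragment, with 1 symbol per library (colour for line and day, shape for replicate) and a line through the medians of the 8 libraries. Values of 0 are not drawn, and symbols of 1 window are set apart sideways for legibility. The median falls from 22.0% in the first window to 1.33% between 400 and 500 kb and 0.0799% between 500 and 600 kb. It stands above both neighbouring windows in those that begin at 300, 700, 900, 1300, 1500 and 1700 kb.

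The decline at 500 kb was steep. In OctSox cells the window from 500 to 600 kb held 0.0688% and 0.0484% of counts on day 0, and 0.127% and 0.0752% on day 3. In YY1 cells it held 0.128%, 0.105%, 0.0738% and 0.0846%, in the same order of libraries. Every library lay below 0.13% there and at or above 0.715% in the window before it. The ratio of the window before 500 kb to the one after it was between 9.5 and 40.9, with a median of 14.3. On the lower side of the viewpoint, the same pair of windows differed by a ratio between 0.965 and 2.32, with a median of 1.86. The position of this step was chosen after the values were seen, so it is given without a test. The last member before it with a mean share above 0.1% was chr17:36131662-36136005, 491 kb away, at 0.211% ± 0.191 (SD, n = 8), and it had no count in 2 libraries. No member between 500 and 700 kb exceeded a mean share of 0.0608%, and the next above 0.1% lay 744 kb away.

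By means, the step was as large over fragments with counts alone, and by medians it was smaller. Of the members between 400 and 500 kb, 17 of 20 had a count in at least 1 library, and of those between 500 and 600 kb, 18 of 25 did. Over these fragments alone, the mean share per fragment was 0.0790% before and 0.00493% after 500 kb, a ratio of 16.0. On the lower side the ratio computed in the same way was 1.45. The median share over the same fragments was 0.00726% before and 0.00108% after 500 kb. On the lower side the median also fell, from 0.0656% to 0.0157%.

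The side towards lower coordinates holds 419 fragments within 2 Mb and had a smaller share in total. In OctSox cells the higher side held 4.59 and 2.01 times as many counts as the lower side on day 0, then 2.64 and 5.42 times on day 3. In YY1 cells the ratios came to 3.02 and 3.36 on day 0, then to 2.11 and 5.26 on day 3. All 8 libraries thus had more counts on the higher side, with a mean log2 ratio of 1.73 ± 0.57 (SD, n = 8). The side was picked as the strongly contacted one from these counts, so the ratios describe it and no p is given for them. The number of fragments with any count goes the other way on average: the log2 ratio of these numbers, higher over lower side, averaged -0.0943.

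The higher side was ahead in the bands up to 500 kb and the lower side in those beyond. In windows of 100 kb the sides changed places earlier: the higher side was above in 8 of 8 libraries from 300 to 400 kb, and the lower side in 8 of 8 from 400 to 500 kb, with medians of 2.13% and 1.33%. From 50 to 200 kb, the 32 members held 10.2% ± 1.30 (SD, n = 8) against 0.869% ± 0.336 for 42 fragments of the lower side, a mean ratio of 12.5 with a range between 7.95 and 22.2. From 200 to 500 kb, 66 members held 10.6% ± 1.94 against 6.24% ± 1.84 for 61 fragments, a ratio of 1.75 with a range between 1.31 and 2.38. From 500 kb to 1 Mb, 126 members held 1.16% ± 0.353 and 89 fragments of the lower side 2.95% ± 0.605, so that the lower side was ahead by 2.60 times, with a range between 1.33 and 4.93.

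From 1 to 2 Mb, 210 members held 1.35% ± 0.467 and 216 lower fragments 2.93% ± 0.883, the lower side again ahead, by 2.23 times with a range between 1.36 and 3.74. Each of these 4 bands had the same order of sides in 8 of 8 libraries. The bands were compared after the crossing had been seen, so no p is given for them. No ratio is given below 50 kb, because 10 of the 11 lower fragments there had no count in any library, while the 12 members held 19.4% ± 8.44 (SD, n = 8).

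**Figure D2:**
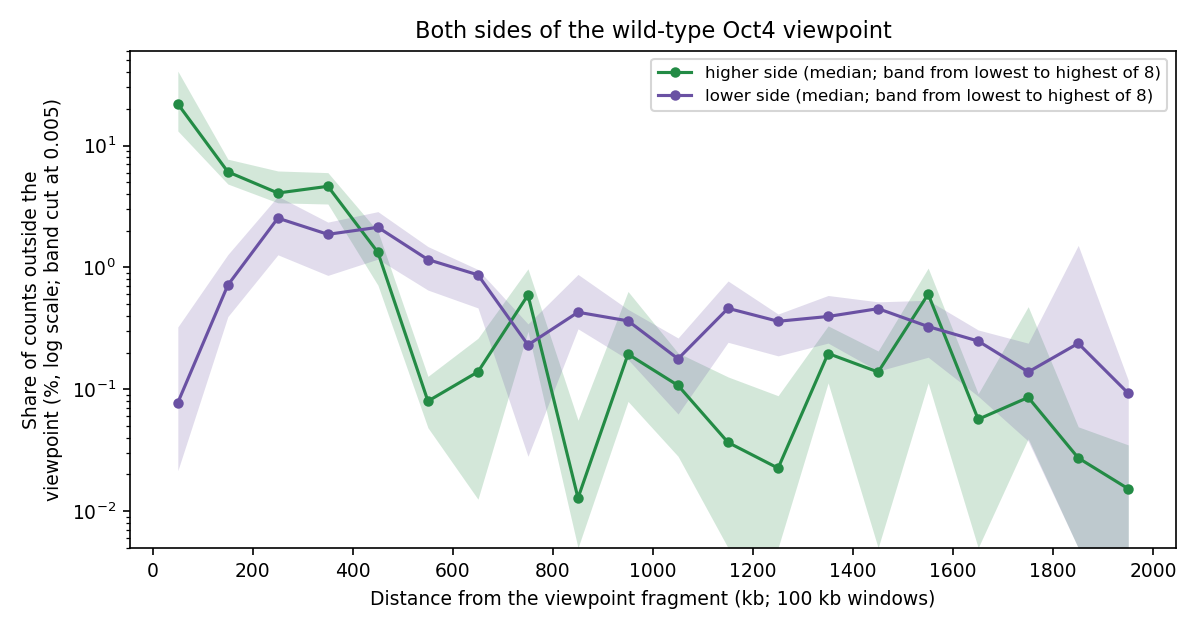
Share of the counts outside the viewpoint (%, log axis) in windows of 100 kb against distance from the viewpoint fragment, for the higher side in green and the lower side in purple; points are medians of 8 libraries and the shaded bands run from the lowest to the highest library, cut off at 0.005%. The higher side is above the lower one in the first 4 windows, and the curves cross between 400 and 500 kb, where their medians are 1.33% and 2.13%. Beyond that the higher side's median is above the lower side's in the windows at 700 and 1500 kb only.

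The slope of contacts with distance, fitted on log axes from 20 kb out to 2 Mb, averaged -1.26 ± 0.12 (SD, n = 8) for the members. It was lower than that of the other side by 2.31, written as a difference of -2.31 ± 0.35 (SD, n = 8). Of the lower fragments within 100 kb, 18 of 24 had no count in any library, and the fitted line of that side rose with distance. No p is therefore given for the difference. Between days the slope of the members differed by 0.03 (exact permutation, p = 0.889). More of the members than of the lower fragments had no count in any library, 117 of 446 (26.2%) against 73 of 419 (17.4%). The gap lay beyond 500 kb, with 46 of 126 members from 500 kb to 1 Mb and 68 of 210 beyond without a count, against 10 of 89 and 34 of 216 on the lower side.

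A few fragments carried much of the signal. The 10 most contacted members of each library held between 42.1% and 66.0% of its member counts, with a median of 50.4%. Ranked by their mean share over the 8 libraries, 8 of the top 10 lay within 54.4 kb of the viewpoint and the other two were 158 and 174 kb away. Of the 10, 9 were in the top 10 of both lines when each was ranked alone.

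The first member, chr17:35643155-35652106, began 2.06 kb from the viewpoint fragment and was the most contacted. In OctSox cells its share was 9.32% and 3.20% on day 0, then 6.71% and 14.2% on day 3, and YY1 cells had 3.71%, 4.30%, 3.52% and 10.2% in the same order. The highest values were in the shallow second replicates of day 3, and the days overlapped in both lines. The lower bounds of the 95% Wilson intervals of those libraries, 13.4% and 9.54%, were above the shares of all 6 others.

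The second member, chr17:35652113-35659414, had 8.35% and 1.76% in OctSox cells on day 0, then 2.63% and 4.15% on day 3, and YY1 cells had 2.82%, 3.39%, 1.69% and 2.93%. The first OctSox replicate of day 0 stood above all other libraries here. It was also highest at chr17:35671799-35674740, 30.7 kb away, with 5.61% against 2.92% in the next library, and at chr17:35659421-35664740, 18.3 kb away, with 3.81% against 1.31%. In that library the viewpoint and its neighbours held the largest part of the counts, and the effect of this on the other shares was not tested.

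More distant fragments of the top 10 varied less. The fragment chr17:35814628-35822271, 174 kb away, had 1.77%, 1.29%, 1.35% and 0.589% in OctSox libraries and 1.29%, 0.996%, 0.792% and 1.71% in YY1 libraries, those of day 0 first. Its mean of 1.22% ± 0.414 (SD, n = 8) was above those of most members closer to the viewpoint. The fragment chr17:35798798-35801532, 158 kb away, had a mean of 0.973% ± 0.341 and a range between 0.427% and 1.34%. Days overlapped in both lines at both fragments.

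**Figure D3:**
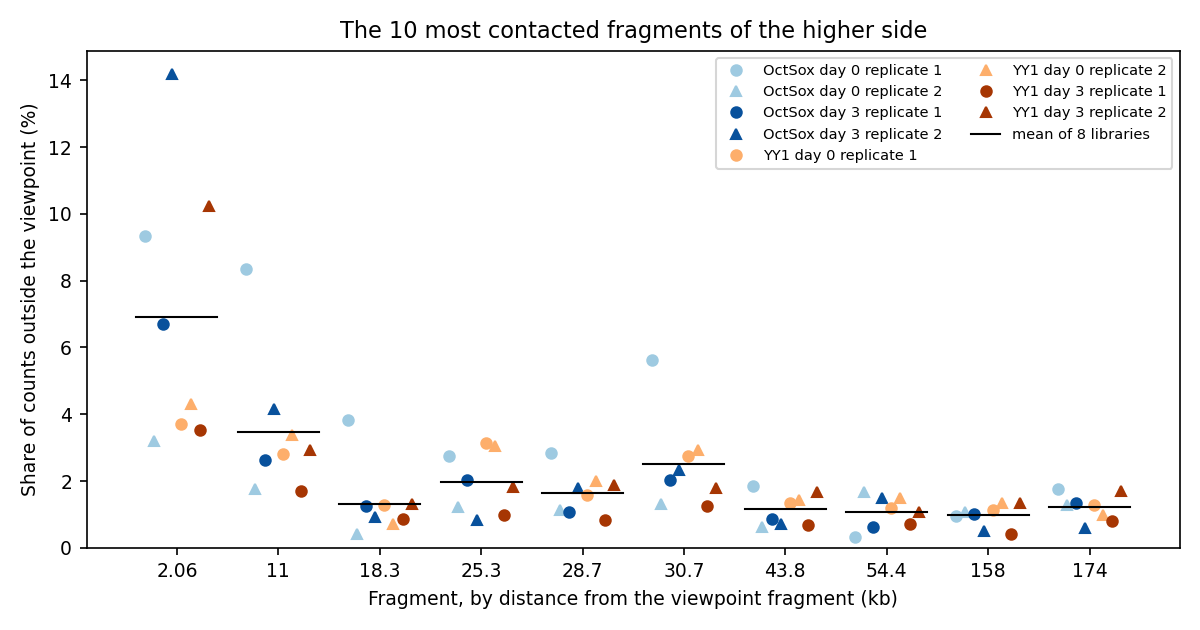
Share of the counts outside the viewpoint (%, linear axis from 0) of the 10 members with the highest mean share, ordered by distance from the viewpoint fragment, with 1 symbol per library and a bar at the mean of 8 libraries. The fragment at 2.06 kb is the highest on average (6.90%) and has the widest spread, between 3.20% and 14.2%, and the fragments at 158 and 174 kb stay between 0.427% and 1.77%.

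Fragment length was not used in the choice of members. The 109 members of 6 kb and longer held 41.9% of the mean share of the side, the 145 members of 1 to 3 kb 33.1% and the 64 below 1 kb 5.02%. On the lower side the fragments of 6 kb and longer held 35.1% and those below 1 kb 10.3%. Members below 1 kb had a count in 60.9% of cases, against 83.5% of those of 6 kb and longer.

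Beyond 500 kb the contacts were not spread evenly, and 2 windows rose above both of their neighbours in 8 of 8 libraries. The window from 700 to 800 kb held 0.467% and 0.881% in OctSox cells on day 0, then 0.600% and 0.940% on day 3, and YY1 cells had 0.545%, 0.587%, 0.299% and 0.973%. Its mean of 0.662% ± 0.243 (SD, n = 8) was 4.72 times that of the window before it and 31.5 times that of the window after it. The window after it, from 800 to 900 kb, had no count in 3 libraries, and 19 of its 27 members had none in any.

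The window from 1500 to 1600 kb held 0.505%, 0.946%, 0.702% and 0.376% in OctSox libraries and 0.824%, 0.988%, 0.431% and 0.113% in YY1 libraries, those of day 0 first. Its mean of 0.611% ± 0.306 was 5.46 times that of the window before it and 12.3 times that of the window after it. Both windows stood above the windows of the lower side at the same distance by their medians, 0.594% against 0.231% and 0.604% against 0.327%. In 7 of 8 libraries the windows from 900 to 1000 kb and from 1300 to 1400 kb also exceeded both neighbours, with means of 0.251% and 0.212%. These windows were picked from the profile, so none was tested as a peak.

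The signal of the window from 700 to 800 kb was shared by several fragments. The fragment chr17:36385515-36390270, 744 kb away, had a mean share of 0.216% ± 0.286 (SD, n = 8), which 1 library raised: it was 0.903% in the second YY1 replicate of day 3 and between 0.035% and 0.253% in the others. The fragment chr17:36404067-36411920, 763 kb away, had 0.147%, 0.0806%, 0.155% and 0.376% in OctSox libraries and 0.0776%, 0.156%, 0.0641% and 0.0282% in YY1 libraries. It had a count in all 8 libraries, and its mean of 0.136% ± 0.108 was 356 times the median of the 31 fragments around it, the highest such ratio among members over 100 kb away. The fragment chr17:36379502-36385508, 738 kb away, reached 58.8 times its surroundings with a mean of 0.0691%.

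In the window from 1500 to 1600 kb, the leading fragments were chr17:37190431-37198066 at 1549 kb with 0.101% ± 0.076, chr17:37207735-37211916 at 1567 kb with 0.0724% ± 0.0438 and chr17:37172320-37176763 at 1531 kb with 0.0701% ± 0.0256 (SD, n = 8 each). The last of them had a count in every library, between 0.0251% and 0.105%. Other fragments that stood out from their surroundings were chr17:36558120-36561428 at 917 kb (116 times), chr17:37360345-37375581 at 1719 kb (108 times), chr17:36984644-36991018 at 1344 kb (41.0 times) and chr17:36103743-36111559 at 463 kb (39.1 times). The lowest of the 8 so named were chr17:36157600-36160072 at 517 kb and chr17:36211271-36214698 at 570 kb, with 25.1 and 25.0 times. Mean shares at the 8 fragments ran from 0.0116% at 570 kb to 0.257% at 463 kb, so most of these ratios rest on surroundings close to 0.

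The members kept a similar order in all libraries. Spearman's rho of the 446 counts was between 0.668 and 0.895 for replicates of a group and between 0.635 and 0.912 for other pairs of libraries. For the mean shares of the 2 lines it was 0.936, and 0.880 over the 336 members beyond 500 kb. These values are across fragments that share the viewpoint, the distance trend and the fragments without counts. The longest run of members without a count in any library was 9 fragments, chr17:36893285-36926000, about 1252 kb away.

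Day 3 was then compared with day 0 for single fragments. With edgeR's quasi-likelihood test and Benjamini-Hochberg adjustment over the whole chromosome, 2 fragments passed an adjusted p of 0.05 in the YY1 line, and both were members and lower at day 3. They were 2 of 123 members tested and 2 of 716 fragments in all (0.279%). The same test found 0 of 129 members and 0 of 731 fragments (0.0%) in the OctSox line, where DESeq2 also called none. No member had an unadjusted p under 0.05 there, against 17 of all 731 fragments.

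The fragment chr17:35666366-35668007, 25.3 kb away, had 3.13% and 3.06% in YY1 cells on day 0, then 0.987% and 1.83% on day 3. The OctSox libraries had 2.75%, 1.21%, 2.05% and 0.840%. The days did not overlap in the YY1 line and did in the OctSox line. Its log2 fold change in the YY1 line was -1.48 ± 0.24 (SE; edgeR adjusted p = 3.25e-07, n = 2 libraries per day). As for every fragment, this SE draws on a spread shared over fragments, so the p does not measure how closely its own replicates matched.

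The fragment chr17:35671799-35674740, 30.7 kb away, had 2.74% and 2.92% in YY1 cells on day 0, then 1.24% and 1.79% on day 3, again without overlap. The OctSox libraries had 5.61%, 1.31%, 2.04% and 2.32%. Its log2 fold change in the YY1 line was -1.21 ± 0.24 (SE; edgeR adjusted p = 0.000176). The difference of the day effect between lines, tested as an interaction, was -1.07 ± 1.05 at the first and -0.43 ± 0.99 at the second fragment (edgeR adjusted p of 1.0 rounded for both), so the effect was not shown to differ between lines. DESeq2 called no member in the YY1 line. It called 4 of 716 fragments there in all, and these 4 lay outside the region and were higher at day 3.

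These 2 calls depended on the libraries and on the scaling. With 1 YY1 library left out at a time, the log2 fold changes ran from -2.47 to -1.67 and from -2.09 to -1.45. Both calls were lost without the second YY1 replicate of day 0 or the first of day 3. Both remained without the first of day 0 or the second of day 3. They were also lost with library totals in place of TMM factors. The next members by p in the YY1 line did not pass: chr17:35652113-35659414 at -0.76 ± 0.21 (edgeR adjusted p = 0.0867), chr17:35854242-35856075 at -1.50 ± 0.45 and chr17:35705276-35707671 at -1.82 ± 0.56 (edgeR adjusted p = 0.118 for both). The neighbour of the called fragments, chr17:35669786-35671792, was at -0.76 ± 0.29 (edgeR adjusted p = 0.349), and the first member was at 0.38 ± 0.14 in the opposite direction (edgeR adjusted p = 0.349).

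The median log2 fold change was -0.88 over the 123 members tested in the YY1 line against -0.40 over all 716 fragments, and 107 of the 123 were below 0 against 64.4% of all. In the OctSox line it was -0.52 against -0.19, with 91 of 129 members below 0 against 56.2% of all. With library totals in place of TMM factors the medians were -0.61 against -0.22 in the YY1 line and -0.44 against -0.18 in the OctSox line. In the YY1 line, 51 of 123 members had both day 3 shares below both day 0 shares, where 27.8% of all fragments tested did, and 6 had both above, against 10.8%. In the OctSox line 15 of 129 members were lower in this sense, against 13.5% of all, and 5 were higher, against 9.71%. The members of a library share its total and were tested only if they passed a filter on low counts, so these counts describe the libraries and carry no test. The gap to all fragments was not kept under every setting. When a median count of 40 or more was required of each fragment, the medians were -0.15 for both 72 members and 134 fragments in the YY1 line, and -0.09 for 80 members against -0.10 for 139 fragments in the OctSox line. Without the first OctSox replicate of day 0 the direction turned, with a median of 0.56 over 96 members, 68 of them above 0, against 0.20 over all. Without the first replicate of day 3 the members stood above the rest, at -1.50 against -2.03 in the OctSox line and -4.45 against -6.99 in the YY1 line.

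When the lines were fitted together, 0 of 149 members and 0 of 1270 fragments (0.0%) passed in edgeR. An unadjusted p under 0.05 was found for 9 of the 149 members and 59 of the 1270 fragments. DESeq2 called 1 member, and 8 of 1270 fragments in all. That member was chr17:37386528-37418312, 1745 kb away, whose share was 0.263% in the second OctSox replicate of day 3 and 0.0563% in the first YY1 replicate of day 3. It was 0.00537% or lower in the other 6 libraries. In edgeR its adjusted p was 0.266. Without the second OctSox replicate of day 0, edgeR called 3 members over both lines, which were 3 of 2767 fragments in all. All were lower at day 3: the fragments starting at 35652113, 35666366 and 35671799. In all, 10 of 149 members were lower in every day 3 library than in every day 0 library of the same line, against 2.99% of fragments tested, and 0 were higher, against 0.787%.

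Windows gave a similar picture with fewer zeros. In the YY1 line, 18 of the 19 member windows tested had a negative log2 fold change, with a median of -1.01 against -0.19 over all 633 windows of the chromosome. None passed the threshold (edgeR; 0.0% of all windows), with 6 member windows at an unadjusted p under 0.05, against 26 of all 633. The smallest were 200 to 300 kb at -1.16 ± 0.31, 1500 to 1600 kb at -2.12 ± 0.66 and 300 to 400 kb at -1.0 ± 0.33. In 11 of the 19 windows both YY1 libraries of day 3 were below both of day 0, where 11.5% of all windows were, and in 1 both were above, against 23.1%.

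In the OctSox line, 14 of 19 member windows were below 0 with a median of -0.52 against -0.02 over 625 windows, and 0 were called against 0.16% of all. There 1 member window was lower without overlap, against 8.16% of all, and 2 were higher, against 19.7%. The member windows at an unadjusted p under 0.05 numbered 7 of 20 over both lines, against 36 of all 761, and 0 of 761 (0.0%) passed. With library totals the median of all windows moved up to 0.23 in the YY1 line and 0.28 in the OctSox line, and those of the member windows to -0.57 and -0.15. When a median count of 40 was required of each window, 9 of 14 member windows were above 0 in the OctSox line, with a median of 0.06 against 0.01 over all, and the YY1 line gave -0.47 over 15 against -0.04. Without the first replicate of day 3 the member windows were at -0.62 against -0.67 in the OctSox line and at -1.33 against -1.53 in the YY1 line.

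Leaving out a library changed the window effects in the YY1 line. Without the second replicate of day 3 the median was -1.20 over the 20 member windows then tested, against -0.006 over all 790. The first 5 windows and the one from 1500 to 1600 kb were lower at day 3 without either of its replicates. Their log2 fold changes ran from -3.55 to -0.34 without the first and from -1.58 to -0.86 without the second. Without the first, the first 5 windows lay between -1.35 and -0.34, above the median of -1.53 over all 715 windows. These 6 windows were named because they stood out in both fits. Both fits rest on the same day 0 libraries, so the windows were not found independently by each. The window from 900 to 1000 kb was at 1.28 without the first. With only 1 library left at day 3 the spread comes from the pair of day 0 libraries alone, whose member shares were 44.3% and 44.6%. Calls of these fits are therefore not counted. In the OctSox line the first window was at 0.99 without the first replicate of day 0 and at -1.46 without the second, so its direction rests on those libraries.

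**Figure D4:**
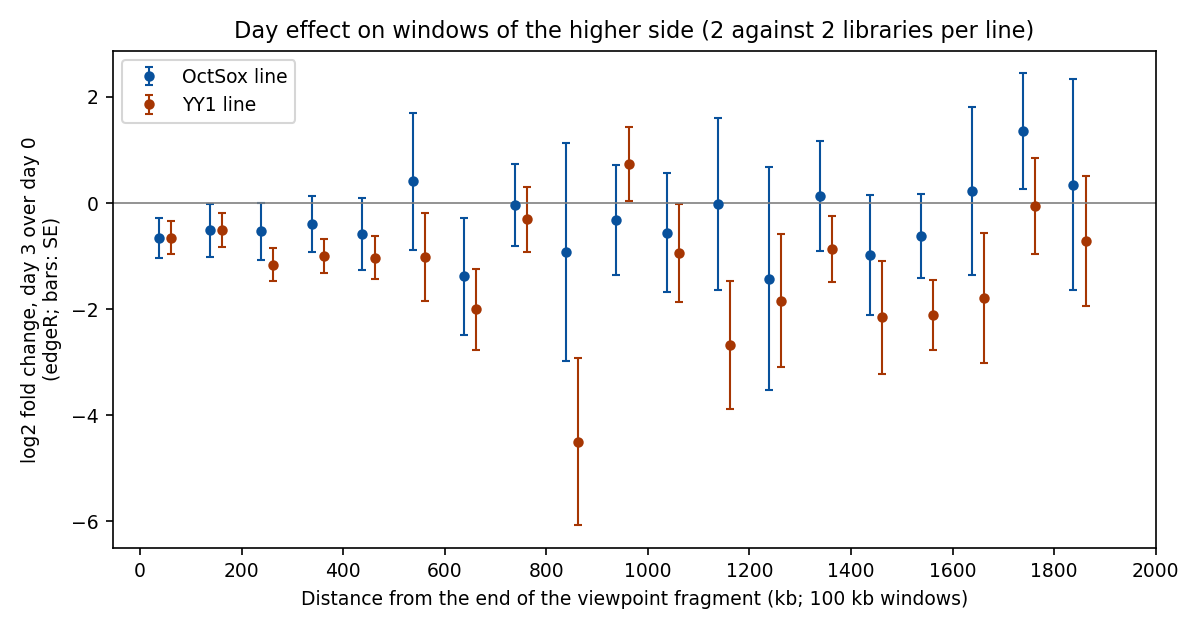
log2 fold change of day 3 over day 0 (edgeR, TMM scaling) for the member windows of 100 kb tested, against distance from the viewpoint fragment, for the OctSox line in blue and the YY1 line in brown, with bars of 1 SE and 2 libraries per day and line. Of 19 windows, 18 lie below 0 in the YY1 line and 14 in the OctSox line, and no window passed the adjusted threshold.

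Between lines, 0 of 149 members and 0 of 1270 fragments (0.0%) passed in edgeR. Only 1 member had an unadjusted p under 0.05, against 62 of all 1270 fragments. DESeq2 called no member and 1 of 1270 fragments in all. The median log2 fold change of the YY1 over the OctSox line was -0.12 over the members and 0.18 over all fragments, with 63 of the 149 members above 0, and 0.02 over the members with the replicate number as a block, with 77 above 0. The members with the smallest p were chr17:37256694-37258454, with counts in 3 YY1 libraries alone and at most 0.0197%, the first member at -0.71 ± 0.39 and chr17:35976719-35977601 at 1.56 ± 0.90 (edgeR adjusted p of 0.641 for the first and 0.999 for the others). Without the second OctSox replicate of day 0, edgeR called 2 members lower in the YY1 line, the first and the second member. They were 2 of 2767 fragments in all. The interaction of line and day gave 0 calls among 149 members and among 1270 fragments (0.0%), and none among members by DESeq2. It had an unadjusted p under 0.05 at 1 member, against 57 of all 1270 fragments. At the first member it was -0.22, and -2.30 without the first OctSox replicate of day 0.

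The distribution of member counts over the 5 distance bands was not shown to differ between days or lines. The band within 50 kb of OctSox cells held 43.7% ± 24.2 of the member counts on day 0, then 48.8% ± 6.47 on day 3, and that of YY1 cells 39.7% ± 1.31, then 43.5% ± 11.8 (SD, n = 2 each). The pooled difference of days was 4.46 points (exact permutation, p = 0.667). No band passed for either contrast (10 exact permutation tests, adjusted p of at least 0.944). None could pass, as the smallest possible p of these exact permutation tests was 0.0556. At an equal depth of 7090 counts, the percentage of members with a count lay between 20.6% and 39.4%, lowest in the second YY1 replicate of day 3. Day 3 minus day 0 was -5.84 points (exact permutation, p = 0.389).

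The authors' deposited table of the day comparison lists 141 fragments for the OctSox line and 136 for the YY1 line, and 80 and 72 of them were members. There, 0 of the 80 members passed in the OctSox line in the authors' deposited table, where 0.709% of its entries did. In the YY1 line 1 of the 72 passed, against 2.94% of entries, 34 of which carry no adjusted p. That member is chr17:35752778-35755901, 112 kb away. Its log2 fold change was 2.53 for day 3 over day 0 (SE 0.513, adjusted p = 8.2e-05 in the authors' deposited table). The deposited counts gave it 0.160% and 0.112% in YY1 cells on day 0, then 0.554% and 0.748% on day 3, without overlap, and the OctSox libraries had 0.0465%, 0.414%, 0.168% and 0.288%. The edgeR fit here gave 1.95 ± 0.69 with an adjusted p of 0.257. Neither fragment called here was called in the authors' deposited table.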

How the data were processed

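For each line the authors deposited the unnormalised read count of every HindIII fragment of chromosome 17, with a list of fragment positions in the same row order. Reads were aligned with Bowtie to mm9, per the submitters' processing notes. How reads were counted and filtered is not given in the sources used here. Coordinates are 1-based. Their deposited tables of the comparison of days give, per the file headers, the mean normalised signal, the log2 fold change and its SE, the test score and the p-value. Their entries are unnamed. They were placed by taking fragments whose median count per line reached 40, less the viewpoint fragment (correlation of means 0.994 and 0.976, next best 0.951 and 0.961). Their log2 fold change runs day 0 over day 3 and was turned here.

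A share is a percentage of a library's chromosome 17 counts outside the viewpoint fragment and 1 neighbour on either side. Fragments and 100 kb windows of the whole chromosome entered the quasi-likelihood test of edgeR (version 4.0.16, R version 4.3.3; TMM, filterByExpr with a minimum count of 10) at a Benjamini-Hochberg adjusted p of 0.05. The SE of an edgeR log2 fold change is its size divided by the root of F. The effect of day was tested per line and, adjusted for line, over all 8 libraries, which also gave the effect of line, adjusted for day, and the interaction. Single values were compared by exact permutation of day or line labels within strata (36 arrangements, smallest possible p = 0.0556). Differences of the 2 sides were put to exact sign flips over the 8 libraries (256 arrangements). Because the side was picked from these counts, those tests entered only the count of values under alternatives. DESeq2 1.42.0 was an alternative, as were other scalings, filters, windows and viewpoint margins. Other steps used pandas 2.3.3 and scipy 1.17.1 under Python 3.11.15, and plots matplotlib 3.10.9.

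The edgeR steps were tested on simulated counts. At the fitted dispersion, the day test of the YY1 line recovered 2.1% of fragments changed 4-fold and 16.8% changed 16-fold among 716, and 0% and 71.4% of windows among 633. In the OctSox line it recovered 0% at either size among 731 fragments, and 0% and 28% of windows among 625. With a dispersion of 0.05 it recovered at least 73.4% of changed fragments and windows in both lines.

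The labels call the replicates biological without saying that they were separate cultures, so p-values measure at most the spread between these libraries. The edgeR fit shares its spread over fragments, so an SE or p need not follow the replicates of 1 fragment. At the first member the SE of the YY1 day effect was 0.14, although its day 3 shares there were 3.52% and 10.2%. Replicates differed by more than sampling noise (chi-square per degree of freedom between 8.56 and 24.4). Members and lists were chosen with earlier results of these data known. Named fragments are the 10 with the highest mean share, those past the threshold or otherwise the 3 smallest p per comparison, and the 8 over 100 kb away that stood highest over a running median of 31 fragments, with counts in at least 7 libraries and 20 kb apart. Those of the windows at 744, 1531 and 1567 kb and those of the authors' table were chosen after their values were seen. The bands of one side against the other, the step at 500 kb and the local maxima of windows were added after seeing the data. The other viewpoints were not used here, and no sequence was printed because no mm9 genome was at hand.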

Additional observations from a re-analysis of the deposited data

Results flagged for a closer look

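Among the 20 windows and the 30 named fragments looked at, 1 window and 4 fragments moved in opposite directions between the lines from day 0 to day 3. Every library of day 3 was above those of day 0 in the OctSox line and below them in the YY1 line. Such opposite movement was found in 5 of 149 members (3.36%) and 39 of 1270 fragments tested (3.07%), and in 1 of 20 member windows (5.0%) and 27 of 761 windows (3.55%), so its frequency among members is near that of the chromosome. The interaction in edgeR called none of them. The window from 500 to 600 kb changed by 0.0424 percentage points in the OctSox line and by -0.0371 in the YY1 line. The fragment chr17:36404067-36411920 changed by 0.152 and -0.0706 points, chr17:37190431-37198066 by 0.159 and -0.0392, chr17:36157600-36160072 by 0.0278 and -0.0269 and chr17:36727219-36737960 by 0.0178 and -0.0124. All 4 fragments had at most 4 counts in the second YY1 replicate of day 3. The last of them had no count in 4 libraries, and its 0 of 7090 counts in that replicate allows a share of up to 0.0423%, above its YY1 shares of 0.0183% and 0.00656% on day 0, so that a decrease was not detectable there at this depth.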

How the results depend on the processing

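Each value was recomputed under the alternatives of its kind, and of 376 such values that answer a comparison, 320 kept their direction and side of the threshold or stayed within the spread, 36 changed sign, 19 moved further and 1, the ratio of sides from 200 to 500 kb, was smaller and past no threshold. This tally is no measure of robustness. Its day and line permutations over all libraries could not pass the threshold, and its comparisons of sides rest on a side picked from these counts. Counted as fragments with a count, the day difference of the higher side was 1.85 points and the log2 ratio of sides -0.0943. That of sides from 200 to 500 kb, taken as percentages of the fragments in the band, was 0.14. The day differences of bands so counted were 5.58 points at 50 to 200 kb, 8.42 at 200 to 500 kb and -5.28 at 500 kb to 1 Mb. The line differences were -0.958 at 50 to 200 kb and -2.03 at 200 to 500 kb. With nothing left out at the viewpoint, or over all counts, the line difference of the share was 8.04 points. With 5 neighbours left out, the day differences of bands were -3.88 points within 50 kb, 3.31 at 50 to 200 kb and 0.0919 at 200 to 500 kb, and the line differences 0.0824 within 50 kb, -1.48 at 50 to 200 kb and -0.138 at 1 to 2 Mb. From 50 kb the slope's day difference was -0.0181. None of these day or line differences could pass in either form, because the smallest possible p of the exact permutation was 0.0556. Calls among members of the YY1 day test fell from 2 to 0 with DESeq2, library totals, no filter, a median count of at least 40 or nothing left out. Over the chromosome DESeq2 called 4 of 716 fragments and the fit with nothing left out 2 of 754, all higher at day 3. The other fits named called 0. Member windows of 50 kb gave 1, where 4 of 841 passed in all. DESeq2 gave 1 over both lines, where 8 of 1270 passed. The cause of these changes was not tested.

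Leaving out 1 library at a time, the share's day difference ran from -12.3 to -1.39 points and its line difference from -10.7 to 0.146, the log2 ratio of sides from 1.63 to 1.84, its day difference from -0.139 to 0.52, the slope's day difference from -0.0786 to 0.136 and the difference in detected members from -9.48 to -2.2 points. The bands' day differences ran from -4.11 to 13.0 points, -4.22 to 2.65, -6.89 to 0.63, -0.421 to 0.99 and -1.5 to -0.163 in order of distance, and the line differences from -13.3 to 3.86, -2.54 to 4.34, -0.344 to 7.18, -0.532 to 0.88 and -0.449 to 0.886. Member fragments called ran from 0 to 3 over both lines and from 0 to 2 between lines, where at most 3 and 2 of 2767 fragments passed in all. Member windows called ran from 0 to 2 and from 0 to 1 in the same order, where at most 3 and 1 of 843 windows passed. No range of calls is given for the day tests of single lines or the interaction, because each such fit leaves 1 library in a group. The fragment starting at 36131662, at -1.87 in the OctSox line, ran from -9.42 to 8.90, and that at 35715486, at -1.42, from -2.43 to 1.17.

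Replicate numbers are shared across days, but same-numbered libraries barely deviated together (correlation 0.0511 in the OctSox and 0.125 in the YY1 line). With the replicate number as a block, the YY1 day test called 2 members, as without it, the exact permutation p of the share's day difference was 0.375, and the fragment starting at 36131662 moved to 0.63 in the OctSox line. The block also turned the member median between lines from -0.12 to 0.02, raised the fragments called over the whole chromosome in the YY1 day test from 2 to 3, and lowered the windows called in the OctSox day test from 1 to 0, none of them a member.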
